A study of Mus musculus with 2 samples.

Results

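The genes described here are 49 cell cycle genes, 20 that are commonly read as marks of S phase, when DNA is copied, and 29 that are read as marks of G2 and mitosis. They were taken as a named list, not by their measured values, and all 49 stood in the gene lists of both libraries, out of 27188 genes listed in either one. The S phase members were Mcm2, Mcm3, Mcm4, Mcm5, Mcm6, Mcm7, Cdc6, Cdc45 and Gins2 (licensing of origins and the replicative helicase), Rrm1, Rrm2 and Tyms (supply of DNA building blocks), Pcna, Fen1, Clspn, Tipin, Dtl and Ung (replication fork, sliding clamp and repair), and Uhrf1 and Slbp (copying of DNA methylation and histone supply). The G2/M members were Cdk1, Ccna2, Ccnb1, Ccnb2, Aurka, Aurkb, Plk1, Bub1 and Ttk (cyclins and mitotic kinases), Cdc20, Ube2c and Cdca3 (anaphase promotion and mitotic entry), Mki67 and Top2a (chromosome structure), Birc5, Cdca8, Cenpa, Cenpe, Cenpf, Ndc80 and Nuf2 (centromere and kinetochore), and Tpx2, Nusap1, Kif11, Kif23, Kif20b, Hmmr, Tacc3 and Anln (spindle and cytokinesis).

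A dividing cell switches these genes on in order. E2F transcription factors, released when cyclin-dependent kinases inactivate the retinoblastoma protein, turn on the replication genes at the end of G1, and the B-Myb, FoxM1 and MuvB proteins turn on the mitotic genes later. Resting lymphocytes hold both sets low and raise them on antigen or cytokine stimulation, which makes the transcripts a usual readout of clonal expansion in tumours.

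The cells came from wild-type C57BL/6 mice with MC38, a colon carcinoma line of the same strain, grown under the skin. One group was left as the control and the other received PBM (spelled out in the series title as photobiomodulation) every day from day 7, and the tumours of both groups were taken on day 14. CD45+ cells, CD45 being the surface protein that blood-derived cells share, were sorted and pooled by condition, so each group is 1 droplet library and the sources used here do not give the number of mice in a pool. There is therefore no replicate, no test and no p-value here, and treatment, pool and library cannot be told apart.

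After filtering, 11099 control cells and 13062 PBM cells remained, at a median of 5621.5 and 5143.5 unique molecular identifiers (UMIs, each standing for 1 captured transcript molecule) per deposited barcode. The libraries differed widely in composition. The classes compared were CD8 T cells (1205 control and 3514 PBM cells), CD4 T cells (315 and 968), Foxp3-positive T cells (518 and 515), NK-like cells (1321 and 203), B-like cells (205 and 5613) and monocyte/macrophage-like cells (5096 and 167). A cluster led by Sparc and collagen genes held 1211 control cells and 7 PBM cells. In its control cells Ptprc, the gene of CD45, stood at 28.5 CPM (the UMIs of a gene for each 1000000 UMIs of its class and library), against 675 CPM in control CD8 T cells, and the 7 PBM cells held only 8 Sparc UMIs in all. The T cell classes rest on single UMIs of Foxp3, Cd8a, Cd8b1 and Cd4, and B-like cells met the CD8 gate in 5.85% of cases in control and 32.1% in PBM; the part of free RNA and of remaining doublets in this was not tested. The 2 libraries shared 1989 barcode names.

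Across classes, the summed level of the 49 members was lower in the PBM library in CD8 T, CD4 T and monocyte/macrophage-like cells, close in both libraries in Foxp3-positive T and B-like cells, and slightly higher in NK-like cells. In CD8 T cells the sum was 1799 CPM in control and 697 CPM in PBM, a log2 ratio of -1.37 with a 95% interval of -1.40 to -1.34. This interval, like all below, covers the counting error of molecules only and not the spread between mice or libraries. In CD4 T cells the sum was 1200 and 497 CPM, a log2 ratio of -1.27 (-1.36 to -1.19). In monocyte/macrophage-like cells it was 797 and 227 CPM, a log2 ratio of -1.81 (-2.07 to -1.56), where the PBM value rests on 132 UMIs. Foxp3-positive T cells had 2186 and 2240 CPM (log2 ratio 0.03, -0.01 to 0.08), the highest sums among the 6 compared classes in both libraries. NK-like cells had 1147 and 1327 CPM (0.21, 0.13 to 0.29), and B-like cells 553 and 544 CPM (-0.02, -0.18 to 0.14). Over all cells the sums were 1474 and 720 CPM, a contrast that also carries the different mix of classes. Neutrophil-like cells, which leave the bone marrow after their last division, had 355 CPM on 76 UMIs in control and 269 CPM on 6 UMIs in PBM.

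The S and G2/M members did not move alike. In CD8 T cells the S members summed to 830 and 428 CPM (log2 ratio -0.96, -1.0 to -0.91) and the G2/M members to 969 and 269 CPM (-1.85, -1.90 to -1.80), so the mitotic group showed the larger gap. CD4 T cells showed the same order, with -1.0 (-1.12 to -0.88) for S and -1.62 (-1.75 to -1.49) for G2/M. In Foxp3-positive T cells the 2 groups had opposite signs behind the even total: S members stood at 1114 and 819 CPM (-0.44, -0.51 to -0.38) and G2/M members at 1072 and 1421 CPM (0.41, 0.35 to 0.47). NK-like cells had 694 and 635 CPM for S (-0.13, -0.25 to -0.01) and 453 and 692 CPM for G2/M (0.61, 0.49 to 0.73). As a share of all member UMIs, the S members made up 46.1% in control and 61.4% in PBM CD8 T cells, but 50.9% (49.8 to 52.1) and 36.6% (35.6 to 37.5) in Foxp3-positive T cells and 60.5% and 47.8% in NK-like cells.

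**Figure D1:**
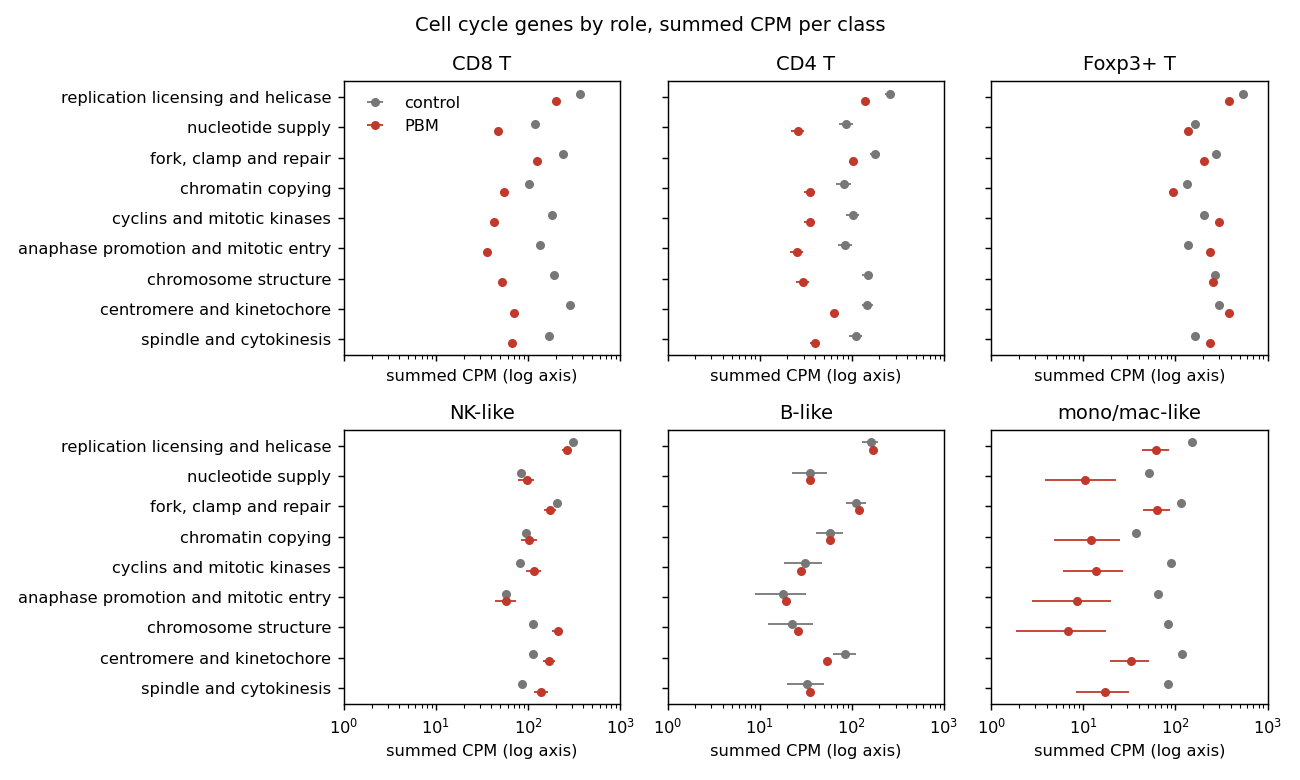
Summed level of the members by role in each compared class, in CPM on a log axis, for the control and PBM libraries, with exact Poisson 95% intervals for counting error. All 9 roles sit lower in PBM in CD8 T and CD4 T cells, while in Foxp3-positive T cells the S phase roles sit lower and most G2/M roles higher, for example cyclins and mitotic kinases at 205 CPM in control and 299 CPM in PBM.

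The promoters of the S and G2/M members are shown because these groups parted in the Foxp3-positive and NK-like cells and because the letters that differ between them are short. RefSeq sequences of build GRCm38.p6, from 250 bases before to 50 bases after the annotated start, were found for 43 of the 49 members, and not for Mcm4, Gins2, Tipin, Ccna2, Aurkb and Tpx2. For 33 of the 43 the bases after the start lay in the first part of a GENCODE vM21 transcript of that gene. Below are the 120 bases before the start of 4 members, 5′ to 3′ on the strand of the gene, with no annotated exon inside. Capitals mark E2F letters (TTTCCCGC, TTTGGCGC, TTTGCCGC or TTTCGCGC), the CCAAT box (CCAAT) and the cell cycle homology region or CHR (TTTGAA or TTCGAA), each searched on both strands. Mcm6, a subunit of the replicative helicase, lies at chr1:128359706-128359825 on the minus strand, and 2 of its 3 E2F matches overlap. Mki67, which coats mitotic chromosomes, lies at chr7:135716380-135716499 on the minus strand. Top2a, the topoisomerase that untangles sister DNA, lies at chr11:99024190-99024309 on the minus strand. Kif11, the kinesin that pushes spindle poles apart, lies at chr19:37376262-37376381 on the plus strand. Of the 4, the start of Top2a lay in the first part of a GENCODE transcript, and the starts of the other 3 rest on the RefSeq table alone.
Mcm6: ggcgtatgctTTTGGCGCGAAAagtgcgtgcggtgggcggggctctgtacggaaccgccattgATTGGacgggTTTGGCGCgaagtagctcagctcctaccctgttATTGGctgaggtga
Mki67: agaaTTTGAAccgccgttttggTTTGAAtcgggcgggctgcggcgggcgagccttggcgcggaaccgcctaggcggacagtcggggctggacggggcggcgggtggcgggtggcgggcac
Top2a: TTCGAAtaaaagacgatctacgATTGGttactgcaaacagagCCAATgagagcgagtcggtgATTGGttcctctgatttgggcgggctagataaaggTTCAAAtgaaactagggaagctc
Kif11: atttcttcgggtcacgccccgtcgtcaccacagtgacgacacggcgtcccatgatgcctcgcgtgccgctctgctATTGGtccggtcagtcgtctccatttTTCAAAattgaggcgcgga
Mcm6 thus shows E2F and CCAAT letters and no CHR in this stretch, whereas Mki67, Top2a and Kif11 show CHR letters and no E2F match. These 4 are not typical of their groups in the 120 bases shown. Among the S members only Mcm6 and Dtl had an E2F match inside that stretch. Among the G2/M members only Cdk1, Cdc20, Ube2c, Mki67, Top2a and Kif11 had a CHR there. The other G2/M members with a CHR had it after the start. Over the matched promoters, a CHR within 100 bases before to 50 bases after the start stood in 20 of 26 G2/M members (76.9%) and 2 of 17 S members (11.8%), against 9.87% of the promoters of 27025 genes. Over the full window, from 250 bases before to 50 bases after the start, a CHR stood in 20 of 26 G2/M members (76.9%). There it stood in 4 of 17 S members (23.5%), against 21.7% of all promoters. In the full window an E2F match stood in 8 of 17 S members (47.1%) and in 1 of 26 G2/M members (3.85%, Cdk1), against 2.61% of all promoters. CCAAT boxes stood there in 76.5% of S and 73.1% of G2/M members, against 41.1% of all promoters. A match describes letters and is not a bound site.

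In CD8 T cells, 39 of the 49 members were lower by 2-fold or more in PBM, 9 were lower by less, and only Kif23 was higher (with TMM, a scaling that evens out the bulk of genes, Ung was higher too). The same threshold took 17.7% of all 12757 genes with at least 20 UMIs over both libraries in these cells, and 8% of those genes were higher by 2-fold or more, against 0 members. The median member had a log2 ratio of -1.74 and the median gene -0.20. Among the S members 12 of 20 passed 2-fold, and among the G2/M members 27 of 29.

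The helicase gene Mcm6 had 97.4 CPM in control and 47.4 CPM in PBM CD8 T cells (log2 ratio -1.04), and its partners Mcm2 (53.9 and 36.1 CPM, -0.58) and Mcm7 (51.1 and 35.2 CPM, -0.54) had smaller gaps. Pcna, the sliding clamp of DNA polymerase, had 100 and 57.6 CPM (-0.80), Tipin, a guard of stalled forks, 66.5 and 30.7 CPM (-1.11), and Fen1, the flap nuclease of lagging strands, 29.9 and 15.8 CPM (-0.92). The nucleotide genes had wider gaps than most of these: ribonucleotide reductase Rrm1 had 43.2 and 20.5 CPM (-1.08), its S phase subunit Rrm2 37.3 and 13.5 CPM (-1.47), and thymidylate synthase Tyms 38.7 and 13.2 CPM (-1.56). Uhrf1, which carries DNA methylation over to the new strand, had 33.8 and 13.5 CPM (-1.33), and Slbp, which binds histone messages, 68.0 and 40.8 CPM (-0.74). Ung, a uracil-removing repair enzyme, was the S member with the smallest gap, 12.2 and 11.3 CPM (-0.11), and its interval included no change.

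All 9 cyclin and mitotic kinase genes passed 2-fold in CD8 T cells, and their sum was 183 CPM in control and 43.1 CPM in PBM (log2 ratio -2.08). Cdk1, the kinase that drives entry into mitosis, had 38 and 7.79 CPM (-2.29), its cyclin partner Ccnb2 33.1 and 7.98 CPM (-2.05), and Ccna2, the cyclin of S and G2, 30 and 7.71 CPM (-1.96). Ube2c, which hands ubiquitin to targets of the anaphase-promoting complex, had 72.5 and 17.1 CPM (-2.08), and Cdc20, the activator of that complex, 22.3 and 8.41 CPM (-1.41). Mki67 had 85.2 and 20.1 CPM (-2.09) and Top2a 108 and 32.3 CPM (-1.74). At the centromere, the histone variant Cenpa had 107 and 24.1 CPM (-2.15), the survivin gene Birc5 67.6 and 19.8 CPM (-1.77), and its complex partner Cdca8 33.1 and 9.38 CPM (-1.82). Cenpf, a kinetochore protein, had the widest gap of the 49, at 31.7 and 5.30 CPM (-2.58). Among spindle genes the microtubule-binding Tacc3 had 32.7 and 10.0 CPM (-1.71), whereas Kif23, the kinesin of the cytokinesis midzone, had 20.3 and 22.0 CPM (0.12). Kif23 alone went against its role, and its interval included no change (-0.13 to 0.37).

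The clusters behind the CD8 T cells differed between the libraries. In control, 87.0% of them lay in a cluster led by Ifng, Pdcd1 and Cxcr6, genes of activated and chronically stimulated T cells, and in PBM 82.1% lay in a cluster led by Dapl1. Without the Ifng-led cluster the log2 ratio of the summed members was -0.12 (-0.23 to 0.00). In the other direction, the 36 control CD8 T cells of the Dapl1-led cluster had 552 CPM, beside 711 CPM in the PBM cells of that cluster. In the Ifng-led cluster the control CD8 T cells had 1918 CPM and the 11 PBM ones 4823 CPM. So in both clusters the PBM cells had the higher level, on few cells of 1 library each. The Foxp3-led cluster had the same sign (560 and 4172 CPM, 6 cells in each library). The level was lower in PBM in the Tcrg-C2-led (757 and 689 CPM, 94 control and 121 PBM cells) and Gm12840-led clusters (414 and 404 CPM, 12 control cells). It was also lower in the Izumo1r-led cluster (1221 and 361 CPM, 9 control cells). Member levels thus differed between clusters as well as between libraries, and the part of cluster make-up in the result was not tested. In these cells the 10 B cell markers summed to 28.0 CPM in control and 576 CPM in PBM and the 13 monocyte/macrophage markers to 1164 and 35.9 CPM, with none of them at 0, and their part was not tested. Free RNA, estimated from markers of other cell types, could supply 9.58% of the member level of control and 19.6% of that of PBM CD8 T cells.

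In CD4 T cells, which here exclude cells with a Foxp3 or Cd8 UMI, 28 members were lower by 2-fold or more and 0 higher, 15 lay between, and 6 had under 20 UMIs. Over all 10009 genes 13.2% were lower and 7.31% higher by that fold. Mki67 had 62.2 CPM in control and 11.7 CPM in PBM (log2 ratio -2.41) and Top2a 86.9 and 17.8 CPM (-2.29), both wide gaps. Rrm2 had 35.6 and 3.48 CPM (-3.35), while its partner Rrm1 had 23.3 and 14.1 CPM (-0.72). Nusap1, which bundles spindle microtubules, had 21.2 and 1.28 CPM (-4.05), the widest gap in this class. Mcm6 (60.2 and 33.3 CPM, -0.85), Pcna (77.3 and 50.4 CPM, -0.62) and Slbp (62.2 and 30.2 CPM, -1.04) had narrower ones, as in the CD8 T cells. Ube2c had 41.7 and 12.5 CPM (-1.74), Ccna2 19.2 and 4.76 CPM (-2.01) and Cenpa 50.6 and 31.5 CPM (-0.68). Ccnb1, the other mitotic cyclin, had 6.16 and 6.23 CPM (0.02) and Ung 7.52 and 8.06 CPM (0.10), the 2 members on the higher side. The control cells lay mostly (72.1%) in the Ifng-led cluster, with 15.6% in a cluster led by Foxp3. The PBM cells lay mostly (82.7%) in a cluster led by Gm12840, with 13.7% in a cluster led by Izumo1r. Summed levels were higher in PBM in the Ifng-led (1204 and 1650 CPM, 7 PBM cells) and Foxp3-led clusters (1910 and 2157 CPM, 11 PBM cells). They were lower in the Gm12840-led (461 and 386 CPM), Izumo1r-led (1190 and 1056 CPM, 5 control cells) and Tcrg-C2-led clusters (485 and 446 CPM). Without the Gm12840-led cluster the log2 ratio of the summed members was -0.25, and the part of cluster make-up was not tested. The 10 B cell markers summed to 23.9 CPM in control (1 at 0) and 552 CPM in PBM CD4 T cells and the 13 monocyte/macrophage markers to 1302 and 41.0 CPM (1 at 0 in PBM), free RNA could supply 14.6% and 24.7% of the member level, and their part was not tested.

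**Figure D2:**
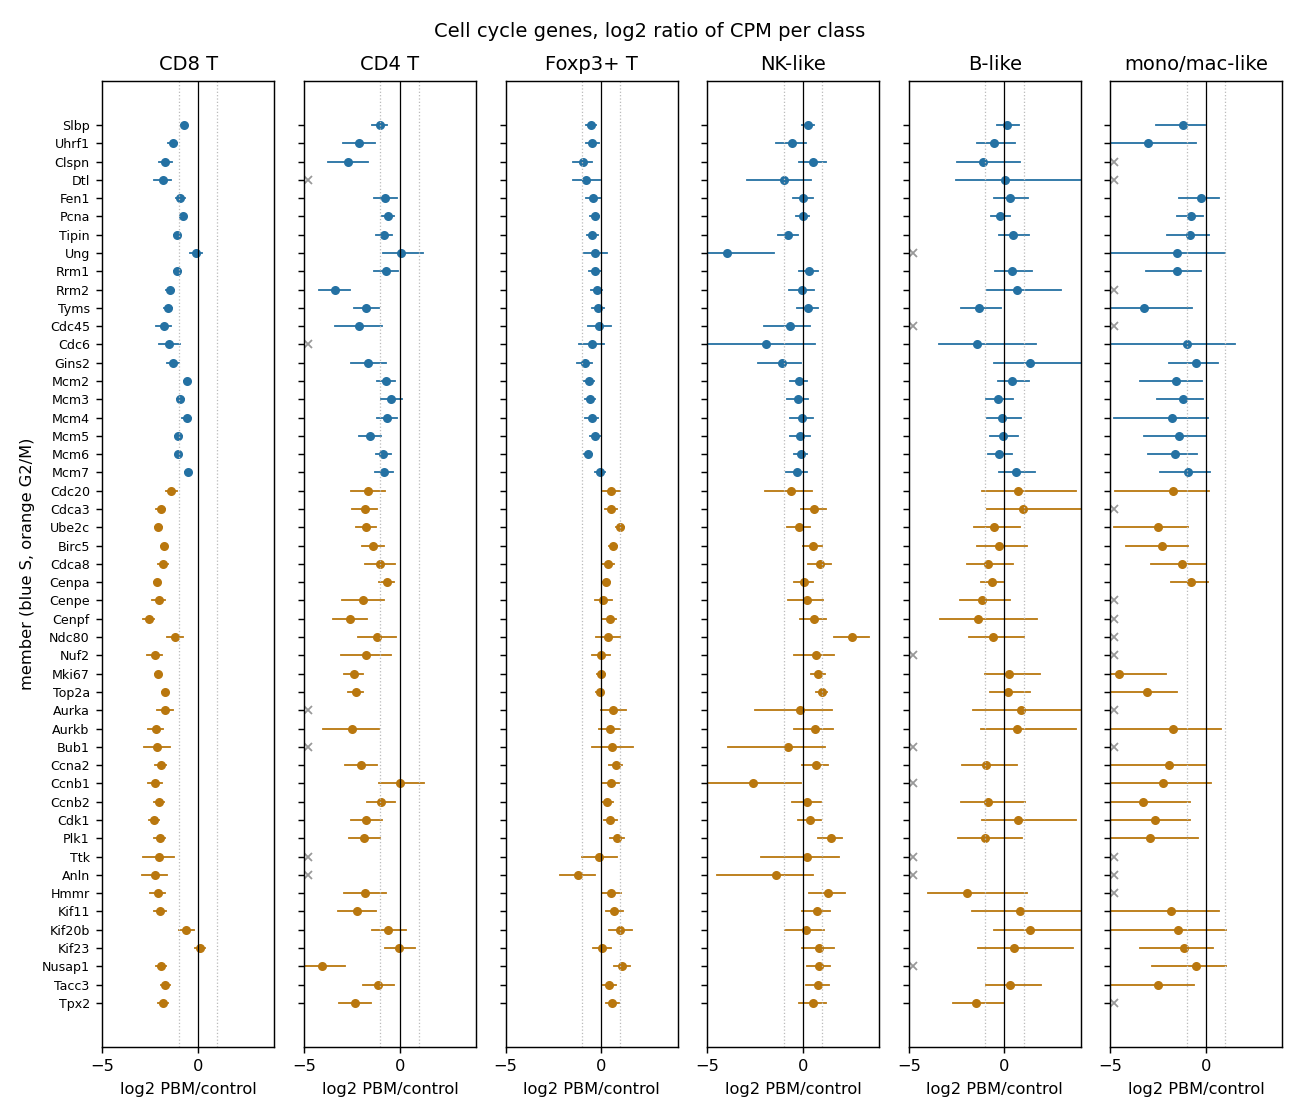
log2 ratio of PBM over control for each of the 49 members in the 6 compared classes, blue for S and orange for G2/M members, with 95% counting intervals drawn from -5 to 4 and dotted lines at 2-fold. Grey crosses mark members with under 20 UMIs or with 0 UMIs in 1 library. The points lie left of 0 for 48 of 49 members in CD8 T cells, and the blue and orange points part to either side of 0 in Foxp3-positive T cells.

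Foxp3-positive T cells, the class that holds regulatory T cells, had a similar total level in both libraries but not the same make-up. The total was higher in PBM with TMM scaling (0.18, 0.14 to 0.23) and without the largest PBM cluster (0.25, 0.20 to 0.30). All 20 S members were lower in PBM, 14 of them with intervals below 0, and 24 of 29 G2/M members were higher, 18 with intervals above 0. Of all 10526 genes of this class 6402 were lower and 4124 higher. With TMM scaling, which moves log2 ratios of this class up by 0.15, 18 S members stayed lower (Mcm7 and Cdc45 did not), and 28 G2/M members were higher, with Mki67, Top2a, Ttk and Nuf2 joining them. Few of these gaps were wide: 1 member, Anln, was lower by 2-fold or more (12.7% of all genes were) and 1, Nusap1, was higher (5.17% of all genes were). The median S member had a log2 ratio of -0.46 and the median G2/M member 0.49, and the median gene of this class lay at -0.14.

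On the S side, Mcm6 had 125 CPM in control and 78.0 CPM in PBM (log2 ratio -0.68), Mcm5 77.8 and 62.0 CPM (-0.33) and Mcm7 68.3 and 65.4 CPM (-0.06). Clspn, the checkpoint mediator at the fork, had 27.3 and 14.0 CPM (-0.96) and Gins2, a part of the active helicase, 39.8 and 22.0 CPM (-0.85), the widest S gaps. Pcna had 111 and 87.2 CPM (-0.35), Tipin 72.0 and 52.3 CPM (-0.46), Slbp 81.5 and 56.4 CPM (-0.53) and Uhrf1 50.6 and 36.8 CPM (-0.46). Summed by role, the nucleotide genes had the narrowest S gap (log2 ratio -0.24, -0.42 to -0.07), though Mcm7 alone was closer. Tyms had 57.3 and 51.1 CPM (-0.17), Rrm2 53.6 and 45.3 CPM (-0.24) and Rrm1 53.0 and 42.1 CPM (-0.33).

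On the G2/M side, Ube2c had 76.0 CPM in control and 149 CPM in PBM (log2 ratio 0.97) and Nusap1 20.2 and 43.3 CPM (1.10). Plk1, the kinase that matures centrosomes and spindles, had 29.1 and 51.8 CPM (0.83), Ccna2 33.1 and 55.7 CPM (0.75), Cdk1 38.9 and 54.5 CPM (0.49) and Ccnb2 45.7 and 57.4 CPM (0.33). Birc5 had 76.6 and 118 CPM (0.62), Cenpa 92.2 and 111 CPM (0.27), Cdca8 38.6 and 49.6 CPM (0.36), Tpx2, the activator of Aurora A, 31.3 and 47.0 CPM (0.59) and Tacc3 35.9 and 48.4 CPM (0.43). The kinesin Kif20b, at 9.81 and 19.6 CPM, lay just inside the 2-fold line. Mki67 (122 and 121 CPM, -0.02) and Top2a (146 and 138 CPM, -0.08), the 2 genes most often used alone as proliferation marks, were level between the libraries, unlike most mitotic members. Ttk, a spindle checkpoint kinase, had 6.43 and 6.05 CPM (-0.09), Nuf2, a kinetochore subunit, 21.1 and 20.8 CPM (-0.02), and Anln, the scaffold of the cleavage furrow, 9.50 and 4.12 CPM (-1.21). Anln alone among the G2/M members had an interval below 0.

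The Foxp3-positive cells also came from different clusters. In control 90.2% lay in a cluster led by Foxp3, Tnfrsf4 and Icos, and in PBM 24.7% did. Of the PBM cells, 47.4% lay in a cluster led by Izumo1r, 12.8% in the Gm12840-led cluster and 12.6% in the Dapl1-led cluster. Of all cells of the Gm12840-led and Dapl1-led clusters 2.50% and 1.98% had a Foxp3 UMI. Among B-like cells 0.49% in control and 1.55% in PBM met the Foxp3 gate, and the part of stray UMIs in this class was not tested. Within the Foxp3-led cluster as a whole (604 control and 168 PBM cells), the summed members stood at 2094 CPM in control and 3999 CPM in PBM, a log2 ratio of 0.93 (0.88 to 0.99). Its G2/M members stood at 1022 and 2676 CPM (1.39, 1.32 to 1.46), its S members had a log2 ratio of 0.30, and Mki67 had 123 and 261 CPM (1.09). So the S members, lower over the whole class, were higher within this cluster, whose cells had a median of 3345 UMIs in control and 5717 UMIs in PBM. The part of this depth gap in the result was not tested. Over the Foxp3-positive class the 10 B cell markers summed to 38.6 CPM in control (1 at 0) and 592 CPM in PBM and the 13 monocyte/macrophage markers to 1327 and 67.1 CPM, and their part was not tested.

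NK-like cells had signs like those of the Foxp3-positive class, with a smaller gap for the S and a larger one for the G2/M members, on only 203 PBM cells; whether the classes differ was not tested. Of the 29 G2/M members 23 were higher in PBM, 8 with intervals above 0, and of the 20 S members 15 were lower, 3 with intervals below 0. Of all 11055 genes of this class 6073 were higher and 4829 lower. By 2-fold, 5 members were lower (9.56% of all genes were) and 3 higher (7.33% of all genes were), shares near those of all genes. Mki67 had 46.6 CPM in control and 81.4 CPM in PBM (log2 ratio 0.80) and Top2a 65.6 and 130 CPM (0.99). Plk1 had 10.4 and 28.8 CPM (1.47), Ndc80, the microtubule-binding arm of the kinetochore, 3.02 and 17.9 CPM (2.57), and Hmmr, a spindle assembly factor, 5.2 and 12.9 CPM (1.31), the 3 members above 2-fold. Nusap1 had 15.4 and 27.8 CPM (0.85) and Tacc3 16.4 and 28.8 CPM (0.81). Against the mitotic trend, Ccnb1 had 6.14 and 0.993 CPM (-2.63), Anln 5.2 and 1.99 CPM (-1.39), Ube2c 30.6 and 26.8 CPM (-0.19) and Cdc20 10.6 and 6.95 CPM (-0.61). Among the S members, Ung had 15.7 and 0.993 CPM (-3.98), Gins2 16.9 and 7.95 CPM (-1.09), the licensing factor Cdc6 3.75 and 0.993 CPM (-1.92) and Tipin 51.7 and 30.8 CPM (-0.75). The values of 0.993 CPM are single UMIs. Pcna (84.1 and 83.4 CPM, -0.01), Mcm6 (79.4 and 73.5 CPM, -0.11) and Slbp (71.9 and 87.4 CPM, 0.28) were close in both. The summed ratio of 0.21 was 0.06 with doublets kept, 0.10 with TMM scaling and 0.40 with free RNA subtracted, so its size was not settled, and with doublets kept the interval included 0 (-0.02 to 0.14), and with TMM scaling 16 S members were lower and 22 G2/M members higher. The 10 B cell markers summed to 25.6 CPM in control and 588 CPM in PBM NK-like cells and the 15 T cell markers to 886 and 1966 CPM, with none at 0, and their part was not tested.

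The B-like cells carried few member transcripts in either library. Of the 46 members with 20 UMIs or more, 7 were lower by 2-fold or more (12.3% of all 11729 genes were) and 2 higher (4.83% of all genes were), and 3 intervals excluded no change. Mki67 had 8.08 CPM in control and 9.62 CPM in PBM (0.25), Top2a 14.5 and 16.5 CPM (0.18), Pcna 59.8 and 50.8 CPM (-0.24), Mcm6 37.2 and 30.9 CPM (-0.27) and Slbp 42.0 and 46.6 CPM (0.15). The 3 members with intervals below 0 were Tyms (14.5 and 5.84 CPM, -1.32), Cenpa (42.0 and 26.3 CPM, -0.67) and Tpx2 (9.70 and 3.42 CPM, -1.50), and the control values of Tyms and Tpx2 rest on 9 and 6 UMIs. Ung, Cdc45, Nusap1, Ccnb1 and Nuf2 had 0 UMIs in control, where 3 UMIs would make 4.85 CPM, and between 2.20 and 7.57 CPM in PBM. Of these, only Ung (7.57 CPM) and Nusap1 (5.01 CPM) stood above that level of 3 UMIs, which is a floor and not an interval. The largest B-like cluster was the Iglc1-led one in control (79.5%) and the Vpreb3-led one in PBM (44.0%). Within the Iglc1-led cluster the summed members were higher in PBM (583 and 714 CPM, log2 ratio 0.29, 0.12 to 0.47). They were also higher in the Ebf1-led cluster (421 and 495 CPM, 29 control cells). In the Vpreb3-led (527 and 415 CPM, 10 control cells) and Egr3-led clusters (508 and 468 CPM, 3 control cells) they were lower. The part of cluster make-up was not tested. Free RNA could supply 35.0% of the control and 21.0% of the PBM member level here.

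In monocyte/macrophage-like cells 44 of 49 members were lower in PBM, 32 of them by 2-fold or more (8.97% of all 13688 genes were). By 2-fold 0 were higher (11.1% of all genes were), and 5 had 0 UMIs in PBM with a control level under the floor of 3 UMIs. Of all 13688 genes of this class 5573 were lower and 5671 higher. Only 19 members had intervals below 0. Members at 0 UMIs in PBM have no interval and were counted as lower only through that floor. Mki67 had 40.3 CPM in control and 1.72 CPM in PBM (log2 ratio -4.55) and Top2a 43.5 and 5.16 CPM (-3.07). Cdk1 had 22.2 and 3.44 CPM (-2.69), Ccnb2 17.1 and 1.72 CPM (-3.31), Ube2c 29.6 and 5.16 CPM (-2.52), Birc5 33.7 and 6.89 CPM (-2.29) and Tacc3 19.5 and 3.44 CPM (-2.50). The S members had smaller gaps, with Pcna at 57.2 and 32.7 CPM (-0.81), Mcm6 at 31.3 and 10.3 CPM (-1.60), Fen1 at 18.5 and 15.5 CPM (-0.26) and Slbp at 23.6 and 10.3 CPM (-1.19). In all, 15 members had 0 UMIs in PBM, among them Cdca3, a trigger of mitotic entry, at 24.6 CPM in control, Tpx2 at 17.5 CPM and Rrm2 at 11.4 CPM, where 3 UMIs in PBM would make 5.16 CPM. Only 167 PBM cells, of median 2338 UMIs, stand behind these values, against 5096 control cells of median 7013.5 UMIs. Free RNA could supply 70.5% of the PBM member level and 23.9% of the control level. With doublets kept the log2 ratio of the sum was -0.85, and with free RNA subtracted -2.52. The Arg1-led cluster was the largest in control (53.3%) and the Ace-led one in PBM (46.1%).

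The Sparc-led cells of the control library had the highest member level of any class of that library, 3351 CPM. Top2a stood at 237 CPM, Mki67 at 144 CPM, Ube2c at 204 CPM, Cdc20 at 101 CPM, Cdk1 at 106 CPM, Pcna at 146 CPM, Mcm6 at 139 CPM and Anln at 87.7 CPM. The epithelial keratin gene Krt18 had 0 UMIs there and Krt8 0.24 CPM. In a finer clustering (Leiden resolution 2) the Sparc-led cells were split. A cluster of 435 control cells had Tnnt2, Fosl1, Cdc20, Ube2c and the keratin gene Krt14 among its leading genes. Another of 371 control cells was led by Ankrd1 and Hmga2, and another of 405 by Dcn and Col3a1. What these cells are was not tested. The 7 PBM cells of the Sparc-led cluster had 4783 CPM on 447 UMIs, and no ratio is given.

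To count cells, each cell was thinned to 1000 UMIs and called cycling when it kept at least 3 member UMIs from at least 2 members. By this count 140 of 1205 control CD8 T cells (11.6%, exact Clopper-Pearson 95% interval 9.86 to 13.6) and 123 of 3514 PBM CD8 T cells (3.50%, 2.92 to 4.16) were cycling, a difference of -8.12 percentage points (-10.1 to -6.30). Without the Ifng-led cluster this difference was -1.70 points (-6.37 to 0.88), an interval that includes 0. In CD4 T cells the shares were 7.30% (4.68 to 10.8) and 2.07% (1.27 to 3.17), a difference of -5.24 points (-8.73 to -2.61). The CD4 T interval included 0 without the Gm12840-led cluster (-1.11, -5.77 to 4.35), without thinning (-5.26, -11.5 to 0.77) and with scanpy's phase scores (-3.08, -9.40 to 3.21). In monocyte/macrophage-like cells 312 control cells (6.12%) and 0 of 167 PBM cells were cycling (exact upper bound 2.18%), a difference of -6.12 points (-6.81 to -3.79). With scanpy's phase scores the difference in this class was -3.16 points (-10.6 to 4.54), an interval that includes 0. Foxp3-positive T cells had 11.6% (8.96 to 14.7) and 12% (9.36 to 15.2), a difference of 0.46 points (-3.50 to 4.42). NK-like cells had 6.13% (4.90 to 7.56) and 7.39% (4.19 to 11.9), a difference of 1.26 points (-1.94 to 5.85), and B-like cells 1.95% (0.53 to 4.92) and 1.87% (1.53 to 2.26). For these last 3 classes the interval of the difference included 0 under this criterion. Thinned to 2000 UMIs with the same threshold, the difference was -16.3 points in CD8 T, -9.33 in CD4 T and -11.2 in monocyte/macrophage-like cells. It was -8.10 (-13.5 to -2.71) in Foxp3-positive T and -4.75 (-9.40 to 1.43) in NK-like cells, so the last 2 changed sign. This setting leaves out cells under 2000 UMIs, among them 69 of 167 PBM monocyte/macrophage-like and 40 of 203 PBM NK-like cells. Of the Foxp3-positive T cells it leaves out 90 of 518 in control and 49 of 515 in PBM. With at least 2 member UMIs at 1000 UMIs the Foxp3-positive T difference was -4.92 points (-9.67 to -0.16), and with at least 6 at 2000 UMIs it was -0.97 (-5.22 to 3.21). The share in Foxp3-positive T cells thus depended on the threshold.

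The shares can be read against cells that should not divide. Among neutrophil-like cells, of median 2071 UMIs, 1 of 72 control cells met the criterion (1.39%, 0.04 to 7.50), and so did 0 of 12 PBM cells of median 1684 UMIs. That interval is wide, and among the compared classes it lies wholly below the interval of the control CD8 T and of both Foxp3-positive T shares only. Without thinning, the shares were far higher: 54.0% and 45.3% in CD8 T cells, 38.7% and 33.5% in CD4 T cells, 51.0% and 47.8% in Foxp3-positive T cells, 51.1% and 35.5% in NK-like cells, 17.6% and 28.5% in B-like cells, 48.6% and 6.59% in monocyte/macrophage-like cells and 9.72% in control neutrophil-like cells. Many cells lay at the threshold. In CD8 T cells 115 control and 182 PBM cells had exactly 2 member UMIs and 38 and 52 had exactly 3, so the class is a range and not a type.

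Split by which group of members had more UMIs, 5.23% of control CD8 T cells were in the S group and 5.31% in the G2/M group, beside 1.94% and 1.45% in PBM. In Foxp3-positive T cells the S share was 6.37% in control and 4.66% in PBM (difference -1.71 points, -4.58 to 1.12) and the G2/M share 4.25% and 6.60% (2.35 points, -0.44 to 5.22). Those differences have the signs of the summed levels, but both intervals include 0. Cells with at least 10 member UMIs numbered 8 (1.54%) in control and 15 (2.91%) in PBM Foxp3-positive T cells, and 18 and 13 in CD8 T cells. In control Sparc-led cells 517 of 1211 were cycling (42.7%, 39.9 to 45.5), with 12.4% in the S and 27.5% in the G2/M group. No division is read from phase calls alone. Detection of Mki67 itself after thinning gave 3.49% and 0.71% of CD8 T cells, 4.25% and 3.69% of Foxp3-positive T cells, 1.74% and 3.94% of NK-like cells, 10.4% of control Sparc-led cells and 0 of 72 control neutrophil-like cells.

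**Figure D3:**
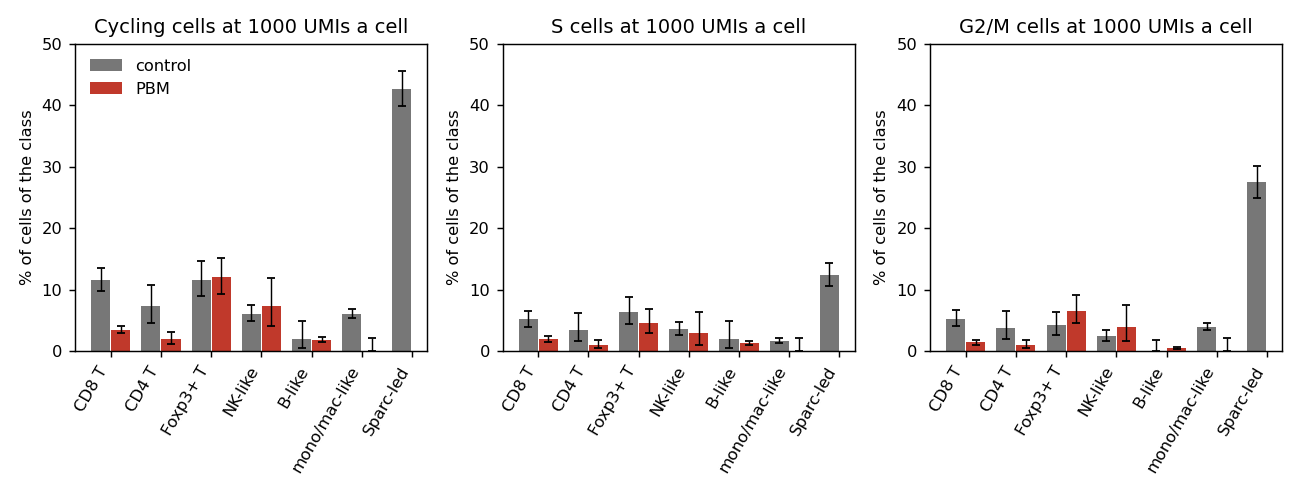
Percent of cells called cycling, in the S group and in the G2/M group, by class and library after thinning to 1000 UMIs per cell, with exact 95% intervals; Sparc-led cells are drawn for control only. The control bar is higher in CD8 T (11.6% and 3.50%), CD4 T and monocyte/macrophage-like cells, and the intervals overlap in Foxp3-positive T, NK-like and B-like cells.

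Within classes the cycling cells sat unevenly over the clusters. Control CD8 T cells of the Ifng-led cluster were 12.6% cycling, and none of the 36 control CD8 T cells in the Dapl1-led cluster were. In PBM, 3.71% of CD8 T cells of the Dapl1-led cluster were cycling, and the Ifng-led cluster held 11 PBM CD8 T cells, of which 4 were. Foxp3-positive cells of the Foxp3-led cluster were 10.5% cycling in control, while in PBM 34 of 127 (26.8%) were. The Izumo1r-led cluster had 9.02% of its PBM Foxp3-positive cells cycling, and the Gm12840-led cluster 0 of 66. Over whole clusters, the Foxp3-led one had 9.27% (7.08 to 11.9) cycling in control and 26.8% (20.3 to 34.2) in PBM, intervals that do not overlap. Among control macrophage-like clusters, the one led by Ccl8, Folr2 and Ccl12 had 11.3% cycling, the Arg1-led one 4.86% and the Ace-led one 1.15%. A cluster that is mostly of 1 library may reflect that library, which cannot be told apart here.

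**Figure D4:**
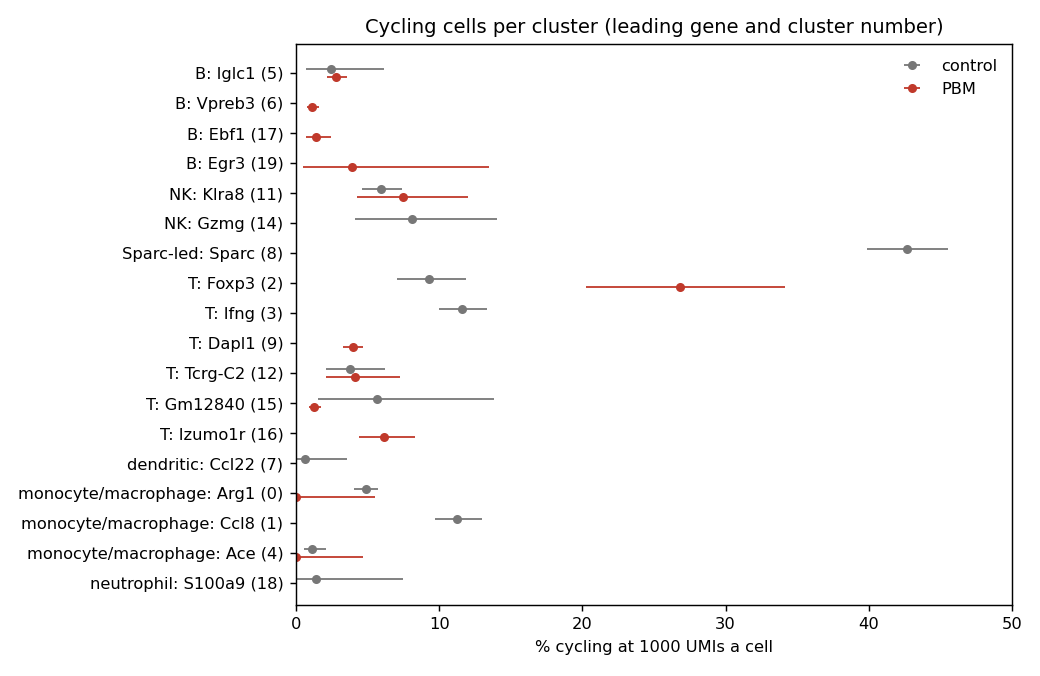
Percent of cycling cells in each cluster that was given a class name and had at least 50 cells in that library, after thinning to 1000 UMIs, with exact 95% intervals, for control and PBM. Clusters left unnamed are not drawn. Of these, the Gm10800-led one had 15.5% of 103 control cells cycling. The Cd209a-led one had 2.84% of 317 control and 2.06% of 97 PBM cells cycling. Clusters with cells from both libraries can be compared side by side, and the Foxp3-led cluster shows 9.27% in control and 26.8% in PBM.

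Other genes of the pathway that are not members were read from lists. Of 30 other proliferation genes, 20 were lower by 2-fold or more in PBM CD8 T cells and 18 of 27 measured in CD4 T cells, with 0 higher in either. In Foxp3-positive T cells 1 was lower and 1 higher by that fold, in NK-like cells 2 and 6, in B-like cells 0 and 2, and in monocyte/macrophage-like cells 9 and 0. Over all genes 17.7, 13.2, 12.7, 9.56, 12.3 and 8.97% were lower by that fold in these 6 classes, in this order. Higher were 8, 7.31, 5.17, 7.33, 4.83 and 11.1%. The counts in Foxp3-positive T and B-like cells and the lower count in NK-like cells were thus near or under those shares. Pclaf, a clamp-binding factor, had 141 CPM in control and 38.8 CPM in PBM CD8 T cells (log2 ratio -1.86), and 159 and 170 CPM in Foxp3-positive T cells. Hmgb2, a chromatin protein of dividing cells, had 639 and 275 CPM in CD8 T (-1.22), 821 and 1085 CPM in Foxp3-positive T (0.40) and 386 and 739 CPM in NK-like cells (0.94), the signs of the G2/M members in each class.

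The regulators upstream did not follow the members in every class. Of 16 E2F, pocket protein and MuvB genes, 6 were lower by 2-fold or more in CD8 T cells, 3 of 12 in CD4 T cells, 2 of 15 in Foxp3-positive T cells, 4 of 15 in NK-like cells, 3 of 15 in B-like cells and 3 of 16 in monocyte/macrophage-like cells, while 0, 1, 0, 2, 2 and 1 were higher. Over all genes 17.7, 13.2, 12.7, 9.56, 12.3 and 8.97% were lower by that fold in these classes, in the same order, so the count in Foxp3-positive T cells was near that of all genes. E2f1, the activator of replication genes, was lower in PBM in all 6 classes, also in those whose sum over all members was not: it had 16.3 and 4.32 CPM in CD8 T (-1.91), 21.1 and 5.08 CPM in Foxp3-positive T (-2.06) and 16.8 and 5.96 CPM in NK-like cells (-1.49). Of 8 G1 cyclins and kinases, 3 were lower by 2-fold or more in CD8 T and 3 in Foxp3-positive T cells, 3 of 7 in CD4 T, 2 in NK-like, 1 in B-like and 2 in monocyte/macrophage-like cells, with 0 higher in any. Cdk6, a partner of D cyclins, had 121 and 20.9 CPM in CD8 T (-2.53) and 190 and 48.9 CPM in Foxp3-positive T cells (-1.96), while Ccnd2, the cyclin D2 gene, had 361 and 477 CPM (0.40) and 734 and 544 CPM (-0.43). Among kinase inhibitors, 2 of 4 measured were lower by 2-fold or more in CD8 T and in CD4 T cells, 1 of 4 in Foxp3-positive T, 1 of 5 in NK-like, 1 of 4 in B-like and 0 of 6 in monocyte/macrophage-like cells. Cdkn1a, the p21 inhibitor, was lower in the T cells, with 44.9 and 2.49 CPM in CD8 T (-4.17) and 87.6 and 23.5 CPM in Foxp3-positive T cells (-1.90), but 430 and 683 CPM in monocyte/macrophage-like cells (0.67).

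Of 9 genes known from resting lymphocytes, 4 were higher by 2-fold or more in PBM CD8 T cells, 3 in CD4 T, 3 in Foxp3-positive T, 4 in NK-like and 4 in monocyte/macrophage-like cells, with 0 lower, and in B-like cells 1 was lower and 0 higher. Over all genes 8, 7.31, 5.17, 7.33 and 11.1% were higher by that fold in the first 5 of these classes and 4.83% in B-like cells, and these and the shares given for lower genes apply to the T cell lists as well. Klf2, a transcription factor of resting T cells, had 125 and 430 CPM in CD8 T (1.78), 86.7 and 355 CPM in Foxp3-positive T (2.03) and 115 and 510 CPM in NK-like cells (2.15), of which the Foxp3-positive T and NK-like classes had no lower sum over all members. All 8 T cell activity genes were lower by 2-fold or more in CD8 T, CD4 T and Foxp3-positive T cells, as were 5 of 8 in NK-like, 5 of 5 in B-like and 3 of 8 in monocyte/macrophage-like cells. Of 6 naive and stem-like T genes, 5 were higher by 2-fold or more in CD8 T, 5 in CD4 T, 4 in Foxp3-positive T, 5 in NK-like, 2 in B-like and 5 in monocyte/macrophage-like cells. The 15 T cell markers summed to 202 CPM in control and 1097 CPM in PBM monocyte/macrophage-like cells, and the part of such stray RNA in these counts was not tested.

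Within a class and library, cycling cells could be set against the other cells on genes that did not define them. This was done in 10 pairs of class and library, and the cycling cells were the deeper ones in each, for example 10036.5 against 5143 median UMIs in control CD8 T cells and 15296 against 5624 in PBM Foxp3-positive T cells. E2f1 stood at a higher CPM in the cycling cells of 10 of 10 pairs (log2 ratios 1.05 to 4.00), as were Pclaf (2.81 to 6.82) and Hmgb2 (2.07 to 3.77). In control CD8 T cells Pclaf stood at 577 CPM in cycling and 26.3 CPM in other cells, and E2f1 at 42.0 and 9.53 CPM. Foxm1, a driver of the mitotic genes, was higher in the 9 pairs where it had UMIs enough on both sides (2.54 to 5.34), and Ccne2, the cyclin E2 gene, in 9 (2.00 to 6.04).

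Most of the 9 genes of resting lymphocytes were lower in the cycling cells of most pairs: Btg1, Slfn2 and Pik3ip1 in 10 of 10, Btg2, Foxp1 and Klf2 in 9, and Foxo1, Tob1 and Tsc1 in 8. Lower here means a smaller share of the UMIs of deeper cells, and transcripts per cell were not compared. Tob1 had an interval below 0 in 2 pairs and Tsc1 in 0, with 1 above 0, and Foxp1 also had 1 above 0. Btg1, an antiproliferative factor, was lower in 10 of 10 pairs (-1.47 to -0.34), with 314 CPM in cycling and 500 CPM in other control CD8 T cells, and 165 and 457 CPM in PBM Foxp3-positive T cells. Slfn2, a gene that keeps T cells quiescent, was lower in 10 (-1.08 to -0.12) and Pik3ip1, an inhibitor of PI3 kinase, in 10 (-1.84 to -0.39), 5 of them with intervals below 0. Ccnd2, a G1 cyclin, was lower in 9 of 10 (-0.86 to 0.03), with 219 and 398 CPM in control CD8 T cells. Cdkn2c, the p18 inhibitor, was higher in cycling cells in 9 pairs and lower in the Sparc-led cells (-0.48), where it had 40.5 and 56.4 CPM.

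**Figure D5:**
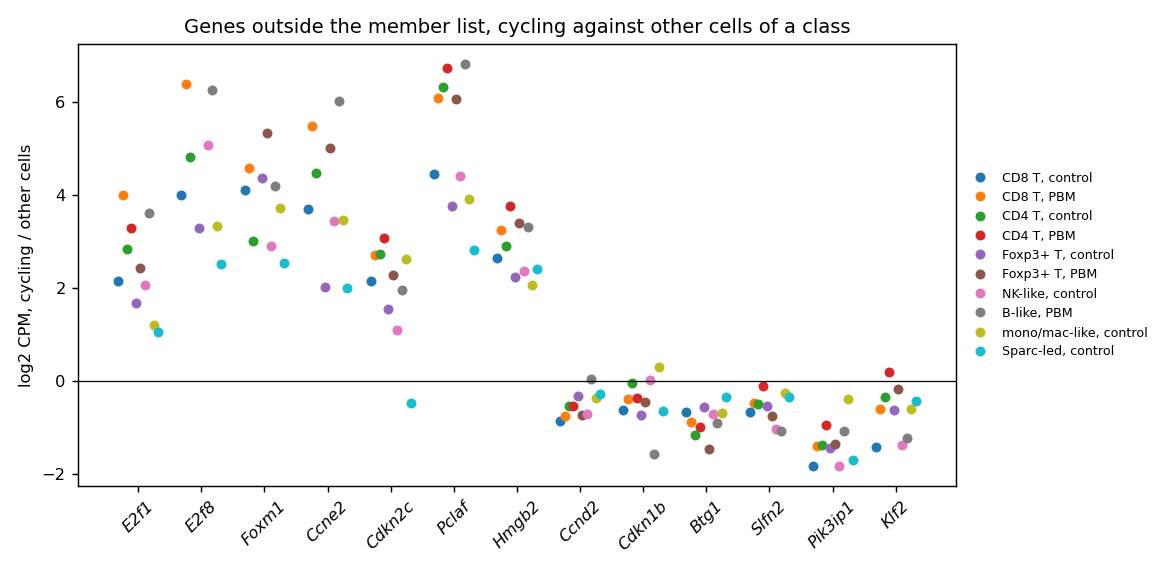
log2 ratio of CPM in cycling cells over the other cells of the same class and library, for 13 genes that are not members, with 1 point per pair of class and library. E2f1, Pclaf and Hmgb2 lie above 0 in all 10 pairs, Btg1, Slfn2 and Pik3ip1 below 0 in all 10, and Cdkn2c lies below 0 in the Sparc-led cells alone.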

How the data were processed

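Sorted cells of each condition were run as 1 library with 10x Genomics 3′ chemistry, per the labels' protocols. The deposited values are raw UMI counts per gene and barcode in 1 matrix per library, made by the authors. The submitters' processing notes name Cell Ranger 7.2.0 and mm10, while PISA 0.12 is named per the file headers, and which of them wrote the matrices was not settled. The matrices held 11238 control and 13962 PBM barcodes, with 104673228 and 86159897 UMIs, and no cell under 1002 UMIs.

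Cells under 500 UMIs, under 200 genes or above 10% mitochondrial UMIs were removed (11 and 1 cells). Scrublet, in scanpy 1.11.5 on Python 3.11.15 with numpy 2.4.6, removed 128 control doublets (1.14%, beside 8.98% expected) and 899 PBM doublets (6.44%, beside 11.2% expected). Cells were clustered without the members and without other proliferation, mitochondrial, ribosomal, histone and antigen receptor genes (2000 variable genes, 30 components, 15 neighbours, Leiden resolution 1 in igraph 0.11.9), and clusters were named from marker lists, so class names are rebuilt and may differ from the study's. T cells were split by UMIs of Foxp3, of Cd8a or Cd8b1, and of Cd4. Classes with at least 100 cells in both libraries were compared.

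Counts were summed per class and library and given as CPM, UMIs per 1000000. Ratios carry exact conditional binomial 95% intervals, levels exact Poisson and shares Clopper-Pearson intervals (scipy 1.17.1), and share differences Newcombe intervals. Genes with at least 20 UMIs over both libraries entered the 2-fold counts, and a gene at 0 in 1 library was set to the floor of 3 counts. For shares, cells were thinned to 1000 UMIs, which left out 0 cells. Thinning to 2000 UMIs, an alternative, left out 1588 control and 986 PBM cells. Free RNA was estimated per class and library as the median, over markers of other classes, of their level relative to the whole library. The code was checked on simulated counts. The text names, by role and class, the members with most UMIs, Mki67, Top2a and members that go against their role; a few others (Cenpf, Clspn, Gins2, Plk1, Ndc80, Hmmr, Nusap1, Kif20b, Fen1) were named after their values were seen. The members and all lists were chosen with earlier results of these data known. Alternatives were other doublet, thinning, threshold, scaling (TMM, edgeR 4.0.16), clustering and free RNA settings. With 1 library per group no test was made.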

Additional observations from a re-analysis of the deposited data

Results flagged for a closer look

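The summed cell cycle members had a log2 ratio of PBM over control of 0.21 in NK-like cells, with an interval above 0, while the ratios of CD8 T cells (-1.37), CD4 T cells (-1.27) and monocyte/macrophage-like cells (-1.81) had intervals below 0. The sign thus differed between NK-like cells and each of these 3 classes in the main setting. With doublets kept the NK-like ratio was 0.06 (-0.02 to 0.14), an interval that includes 0. Without the Ifng-led cluster the CD8 T ratio was -0.12 (-0.23 to 0.00). Without the Gm12840-led cluster the CD4 T ratio was -0.25 (-0.37 to -0.14). With 1 library per group the difference in sign between classes was not tested.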

How the results depend on the processing

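No paired analysis was possible because each group has 1 library and no fit was made. In no setting did a log2 ratio whose interval excluded 0 change its sign. Values that moved by more than their counting interval were, for the log2 ratio of the summed members: with doublets kept, -1.41 in CD8 T, 0.063 in NK-like and -0.85 in monocyte/macrophage-like cells; with TMM scaling, which adds 0.21, 0.16, 0.15, -0.11, 0.20 and -0.03 to the log2 ratios of the 6 classes in the order CD8 T, CD4 T, Foxp3-positive T, NK-like, B-like and monocyte/macrophage-like, -1.15 in CD8 T, -1.11 in CD4 T, 0.18 in Foxp3-positive T, 0.10 in NK-like and 0.17 in B-like cells; with free RNA subtracted, -1.41 in CD8 T, -1.37 in CD4 T, 0.15 in Foxp3-positive T, 0.40 in NK-like, 0.25 in B-like and -2.52 in monocyte/macrophage-like cells; and without Pcna, the most abundant member, -1.41 in CD8 T cells. Leaving out the largest cluster of a class was added after the data were seen. Without the largest control cluster the ratio was -0.12 in CD8 T cells, and without the largest PBM cluster -1.56 in CD8 T, -0.25 in CD4 T, 0.25 in Foxp3-positive T and 0.25 in B-like cells. The number of members lower by 2-fold or more differed by over 1.5 times with free RNA subtracted, at 0 in Foxp3-positive T and 3 in NK-like cells; smaller changes were 34 in CD8 T cells with TMM, 25 (doublets kept, TMM) to 34 (no UMI minimum) in CD4 T cells, and 23 (doublets kept) to 45 (free RNA subtracted) in monocyte/macrophage-like cells. The difference in cycling share, in percentage points, moved when cells were thinned to 2000 UMIs at the same threshold (CD8 T -16.3, CD4 T -9.33, Foxp3-positive T -8.10, NK-like -4.75, monocyte/macrophage-like -11.2), without thinning (NK-like -15.6, B-like 10.9, monocyte/macrophage-like -42.0), at 2 UMIs or more (CD8 T -12.3, Foxp3-positive T -4.92, monocyte/macrophage-like -10.2), at 5 or more (CD8 T -4.88, monocyte/macrophage-like -2.59), with scanpy's phase scores (Foxp3-positive T -4.74, monocyte/macrophage-like -3.16), without the largest control cluster (CD8 T -1.70, monocyte/macrophage-like -7.57) and without the largest PBM cluster (CD4 T -1.11). Thinning to 2000 UMIs with at least 6 member UMIs, also added after the data were seen, gave -0.97 in Foxp3-positive T cells. The cause of these moves was not tested, except that a lower threshold or deeper cells admit more cells by construction. Depth limits the B-like control and the monocyte/macrophage-like PBM values most.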
